A study of Mus musculus with 6 samples.

Results

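The genes described are 38 smooth muscle contractile genes and targets of serum response factor (SRF), among 15063 genes listed for cultured mouse bone marrow stromal cells. They were chosen by name, for roles in the actin and myosin machinery or as SRF-dependent genes, and all 38 were listed in the files. Bulk RNA-seq was made from mesenchymal stem cells (MSCs) that had been grown out of the bone marrow of 3-week-old mice in α-MEM with serum. The 2 groups were cells with a conditional knockout of Mapk7 (CKO, 3 libraries at passage 5) and wild-type cells (WT, 3 libraries, of which libraries 1 and 3 were at passage 5 and library 2 at passage 7). Mapk7 encodes ERK5, a MAP kinase. No treatment separated the groups. The sources used here name neither the Cre driver that makes the knockout conditional nor the strain or sex of the mice. The study asks how Mapk7 acts on the choice of these cells between bone and fat. The genes described here belong to another programme, measured in the same cultures.

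Smooth muscle cells and myofibroblasts contract by sliding smooth muscle actin filaments past myosin II. SRF switches on many of the genes for that machinery by binding a short DNA motif, the CArG box, with cofactors of the myocardin and MRTF families, and MRTFs enter the nucleus when actin monomers are used up in filaments. Cultured marrow stromal cells on stiff plastic commonly express Acta2, Tagln and other early members of the programme, while Myh11 and Lmod1 are found mainly in mature smooth muscle.

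Each library held 17351907 to 20689481 counted reads, and values are in RPKM, reads scaled to gene length and library total. Mapk7 stood at 5.59, 3.84 and 5.45 RPKM in CKO libraries 1, 2 and 3, against 7.12, 6.76 and 9.07 RPKM in WT libraries 1, 2 and 3. The log2 difference for Mapk7 was −0.54 (SE 0.23) and did not pass (limma adjusted p = 0.505), and no CKO library reached the level of a WT library. The deleted exons are not named, so a count over the whole gene is only a weak check of the genotype. Klf2, a transcription factor gene driven by ERK5 signalling, was at 2.37 ± 0.942 RPKM in CKO and 48.3 ± 21.5 RPKM in WT (SD, n = 3 each; limma adjusted p = 0.0765). Klf4, a related gene, was at 4.72 ± 2.41 RPKM in CKO and 12.6 ± 0.997 RPKM in WT (SD, n = 3 each; adjusted p = 0.277). The stromal collagen gene Col1a1 ranged from 1126 to 2959 RPKM. Of 12 stromal markers all were listed, and Lepr, a marker of marrow stroma in mice, was under 0.4 RPKM in every library, a gene picked out after its values were seen. None of the 11 tested passed in limma. Pdgfra, Pdgfrb, Cxcl12 and Ly6a had an unadjusted p under 0.05 with means lower in CKO, against 6.39% of all tested genes. WT library 2 stood apart: the 15 cell cycle genes summed to 47.4 RPKM there, against 224 to 522 RPKM in the other 5 libraries. By their descriptions WT libraries 1 and 2 come from one animal, yet the Y-linked gene Ddx3y had 3 reads in WT library 1 and 1915 in WT library 2. Ddx3y had 605 to 1406 reads in the CKO libraries and 990 in WT library 3, so WT library 1 alone was near 0. The WT group was thus mixed for this marker and the CKO group was not, and the fit did not model sex. WT library 3 is numbered wt3 in its description and wt2 in its column header. Results are therefore given with and without WT library 2.

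The promoters of the members show how the motif that names the list is placed. RefSeq promoter windows (build GRCm38.p6, 250 bases before to 50 after each annotated start) matched 33 of the 38 members, all but Actg2, Tagln, Myh11, Csrp2 and Tgfb1i1, in 42 windows. The CArG box was searched as a motif of 10 bases with A or T at the 6 central places, which has the same form on both strands. It was found in 11 of the 42 windows, in 9 genes, against 1.63% of all 32851 windows of the same length. The windows of Ldb3 overlap and hold the same box. Since the list was drawn up partly from known SRF targets, the share of windows is a description of the choice. The 9 genes were Acta1, Actc1, Cnn2, Fhl1, Fhl2, Ldb3, Myl6, Myl9 and Srf. Of these, Fhl1, Ldb3 and Myl9 were higher in every CKO library than in every WT library, against 7.57% of all listed genes. The others overlapped between the groups. A link between the box and the level was not tested. A motif 1 base off the CArG box was found in 13 member windows, against 19.9% of all windows. The MEF2 site, the motif of the factors that ERK5 activates, was found in 2 member windows, those of Fhl2 and Synpo2, against 3.19% of all windows. A match is a run of letters and not a shown binding site, and the absence of a match holds for this window only.

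Boxes of 6 genes are shown to set full CArG boxes beside a motif of Acta2, and were picked after the search. Each box is printed whole, in capitals, with its distance from the annotated start to its first base.
Srf, 82 bases before: CCATATAAGG
Srf, 62 bases before: CCATAAAAGG
Acta1, 73 bases before: CCAAATATGG
Cnn2, 56 bases before: CCTTATAAGG
Fhl1, 102 bases before: CCTAAAATGG
Myl9, 161 bases before: CCTAATAAGG
Acta2, 84 bases before, 1 base off: CCCTATATGG

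Whole promoter windows follow for Srf, which carries a pair of full boxes, for Acta2, the most abundant member, and for Cnn1, Des and Synm, whose CKO and WT levels did not overlap and which have no full box in the window. They run 5′ to 3′ on the gene's strand, and capitals mark CArG boxes, full or 1 base off.
Srf, chr17:46556113-46556412, minus strand: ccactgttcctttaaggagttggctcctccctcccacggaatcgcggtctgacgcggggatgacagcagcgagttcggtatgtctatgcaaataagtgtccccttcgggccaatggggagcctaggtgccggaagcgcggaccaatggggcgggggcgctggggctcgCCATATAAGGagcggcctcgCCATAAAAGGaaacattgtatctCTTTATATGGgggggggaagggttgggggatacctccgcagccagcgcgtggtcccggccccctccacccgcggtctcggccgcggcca
Acta2, chr19:34255324-34255623, minus strand: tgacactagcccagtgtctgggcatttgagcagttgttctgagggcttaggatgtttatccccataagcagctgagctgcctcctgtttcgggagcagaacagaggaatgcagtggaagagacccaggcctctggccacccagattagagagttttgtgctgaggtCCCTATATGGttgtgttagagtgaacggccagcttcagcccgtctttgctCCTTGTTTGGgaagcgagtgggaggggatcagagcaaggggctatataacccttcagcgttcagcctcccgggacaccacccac
Cnn1, chr9:22099003-22099302, plus strand: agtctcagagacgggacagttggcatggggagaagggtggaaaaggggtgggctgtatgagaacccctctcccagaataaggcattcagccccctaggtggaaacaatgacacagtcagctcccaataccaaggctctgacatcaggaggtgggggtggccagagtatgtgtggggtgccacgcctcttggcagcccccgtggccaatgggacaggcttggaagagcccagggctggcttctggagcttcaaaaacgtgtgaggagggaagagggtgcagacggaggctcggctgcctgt
Des, chr1:75360042-75360341, plus strand: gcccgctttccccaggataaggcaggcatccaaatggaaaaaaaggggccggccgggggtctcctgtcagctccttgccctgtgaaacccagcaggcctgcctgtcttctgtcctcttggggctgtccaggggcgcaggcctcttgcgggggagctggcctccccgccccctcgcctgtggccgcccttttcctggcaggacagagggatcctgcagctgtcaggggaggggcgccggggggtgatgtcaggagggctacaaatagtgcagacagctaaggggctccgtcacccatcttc
Synm, chr7:67759693-67759992, minus strand: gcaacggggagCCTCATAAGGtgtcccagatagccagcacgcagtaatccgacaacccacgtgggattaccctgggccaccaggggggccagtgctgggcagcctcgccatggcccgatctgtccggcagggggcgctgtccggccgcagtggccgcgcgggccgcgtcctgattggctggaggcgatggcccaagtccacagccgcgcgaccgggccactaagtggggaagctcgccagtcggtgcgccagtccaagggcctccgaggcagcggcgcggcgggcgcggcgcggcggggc
Acta2 holds a pair of boxes that are each 1 base off, Synm holds 1 such box far upstream, and Cnn1 and Des hold none.

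**Figure D1:**
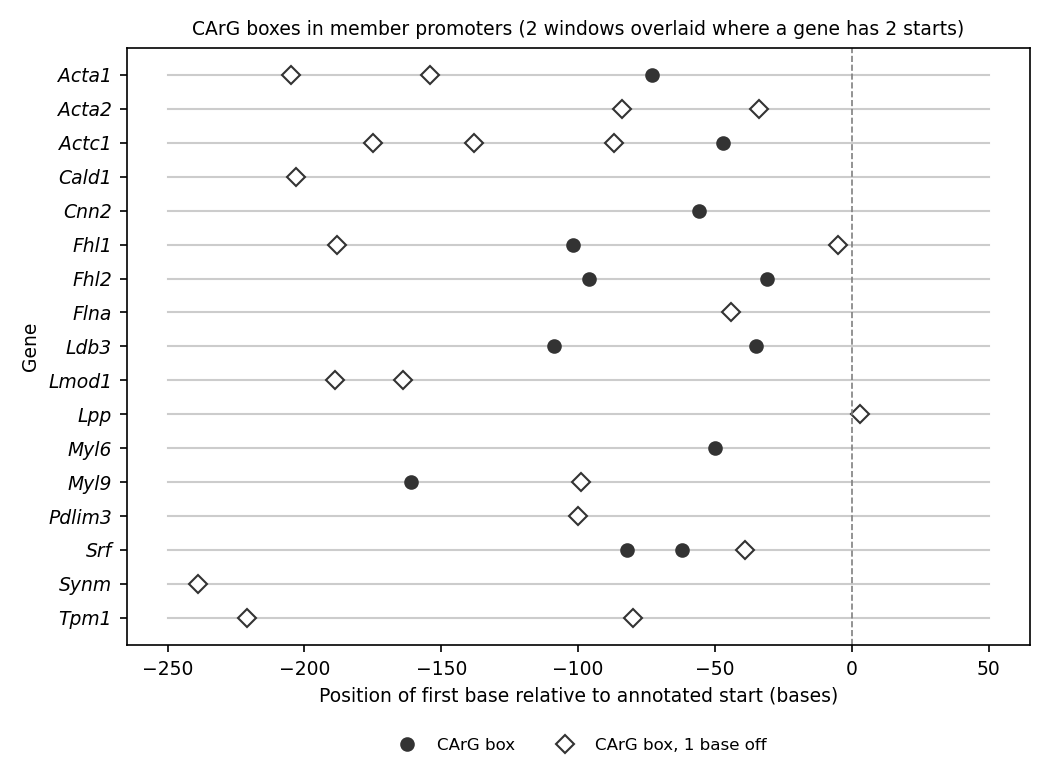
Positions of CArG boxes (filled circles) and of motifs 1 base off (open diamonds) in the promoter windows of the members that have either, in bases relative to the annotated start (dashed line). Srf has full boxes 82 and 62 bases before its start, while Acta2 has only motifs that are 1 base off, 84 and 34 bases before.

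The mean log2 level was higher in CKO than in WT for 34 of the 38 members, against 52.7% of all listed genes, but none passed the test over all genes. Among these, 13 were higher in every CKO library than in every WT library, against 7.57% of all 15063 listed genes. These were Actg2, Cnn1, Tagln, Tpm1, Tpm2, Myh11, Myl9, Des, Fhl1, Pdlim7, Lpp, Ldb3 and Csrp1. The reverse held for 2 members, Synm and Ppp1r12b, against 9.65% of listed genes. Without WT library 2 the same 13 and the same 2 members stood apart in the same way, against 8.72% and 13.3% of listed genes.

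The limma test of CKO against WT on log2(RPKM + 1) covered 36 members, since Actc1 and Pdlim3 fell below the filter of 1 RPKM in at least 3 libraries. None of the 36 passed at an adjusted p of 0.05 over 11085 genes, where 0.00902% of tested genes did, and the lowest adjusted p was 0.258, for Myh11. At an unadjusted p under 0.05 there were 11 higher members, against 3.36% of tested genes, and 1 lower, against 6.39%. With limma-voom on recovered reads the count was again 0, with 11 members at an unadjusted p under 0.05, against 9.02% of tested genes. In limma on log2(RPKM + 1) without WT library 2 the counts were 7 higher, against 1.84% of tested genes, and 1 lower, against 4.04%. Without CKO library 2 they were 5 higher, against 3.29%, and 1 lower, against 5.62%. Over all 38 members without the filter, the median log2 difference was 0.60, and the median over all listed genes was 0.018. Over the 36 tested members it was 0.61 with WT library 2 and 0.38 without it. In bulk RNA, a change in the number of contractile cells and a change in RNA per cell cannot be told apart.

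Of the 4 actin genes 3 were tested, each with a log2 difference above 0, beside 5950 of all 11085 tested genes. Of the 4, 1 was higher in every CKO library than in every WT library, against 7.57% of all listed genes. Acta2, the smooth muscle α-actin gene, was the most abundant member. It stood at 1675, 4085 and 1999.5 RPKM in CKO libraries 1, 2 and 3, against 1707, 459.7 and 1643 RPKM in WT libraries 1, 2 and 3. CKO library 1 lay between the passage 5 WT libraries, so the groups overlapped, and the log2 difference of 1.13 (SE 0.63) became 0.51 (SE 0.45) without WT library 2 and 0.75 (SE 0.67) without CKO library 2. Actg2, the enteric smooth muscle γ-actin gene, stood at 264, 779.8 and 490.3 RPKM in CKO libraries 1, 2 and 3, against 193, 1.10 and 55.7 RPKM in WT libraries 1, 2 and 3. All 3 CKO libraries were above all 3 WT libraries, and WT library 2, with 30 reads, was far below the others. The log2 difference of RPKM + 1 was 4.03 (SE 1.53) with limma adjusted p = 0.462, and 2.15 (SE 0.66) without WT library 2. The mean Actg2 RPKM was 4.12 times as high in CKO as in the passage 5 WT libraries. Acta1, the skeletal muscle α-actin gene, ranged from 12.8 to 63.9 RPKM in CKO and 0.154 to 23.2 RPKM in WT, with 5 reads in WT library 2, and its groups overlapped. Actc1, the cardiac α-actin gene, was at most 1.97 RPKM, reached in CKO library 3, and was at 0 reads in CKO library 2 and WT library 2. Of the cytoplasmic actin genes, SRF targets outside the list, Actb was at 1491 to 3044 RPKM in CKO and 1082 to 2012 RPKM in WT. Actg1 was at 1156 to 2014 RPKM in CKO and 810.0 to 1556 RPKM in WT, and the groups overlapped for both genes, which were named after their values were seen.

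Of 12 genes for proteins that bind the thin filament, all were tested. The log2 difference was above 0 in 11, beside 5950 of all 11085 tested genes, and below 0 in 1. In 4 of the 12, every CKO library was above every WT library, against 7.57% of all listed genes. Tagln, which encodes transgelin (SM22α), stood at 1138, 3364 and 1617 RPKM in CKO libraries 1, 2 and 3, against 850.4, 153 and 871 RPKM in WT libraries 1, 2 and 3. Cnn1, the gene of smooth muscle calponin, stood at 443, 864 and 279 RPKM in CKO libraries 1, 2 and 3, against 168, 56.3 and 211 RPKM in WT libraries 1, 2 and 3. In both genes every CKO library exceeded every WT library, CKO library 2 was the highest and WT library 2 the lowest. The log2 difference was 1.92 (SE 0.76) for Tagln, with limma adjusted p = 0.478, and 1.90 (SE 0.60) for Cnn1, with adjusted p = 0.367. Without WT library 2 the differences were 1.09 (SE 0.49) and 1.33 (SE 0.50). The related genes Cnn2 and Cnn3 are expressed in many non-muscle cells. Cnn2 was at 304 to 607 RPKM in CKO and 338 to 472 RPKM in WT, and Cnn3 at 362 to 493 RPKM in CKO and 236 to 386 RPKM in WT, with overlap in both. Cnn2 had a log2 difference of 0.028 that became −0.085 without WT library 2. Tagln2, the non-muscle transgelin paralogue, was at 249 to 545 RPKM in CKO and 40.4 to 250.1 RPKM in WT, with WT library 2 at 40.4 RPKM and the passage 5 groups overlapping.

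Tropomyosins lie along the actin filament and control access of myosin to it. Tpm1 stood at 385, 831 and 473 RPKM in CKO libraries 1, 2 and 3, against 299, 134 and 342 RPKM in WT libraries 1, 2 and 3. Its groups did not overlap, and its log2 difference was 1.15 (SE 0.47), or 0.73 (SE 0.39) without WT library 2. Tpm2 was at 213 to 620.1 RPKM in CKO and 75.1 to 209 RPKM in WT. Its groups did not overlap either, but the lowest CKO library and the highest WT library were close. Tpm4 was at 636 to 767 RPKM in CKO and 244 to 662 RPKM in WT, with overlap. Caldesmon, encoded by Cald1, was nearly level over the 6 libraries, at 205 to 273 RPKM in CKO and 221 to 225 RPKM in WT, and its log2 difference was 0.028 (SE 0.26). Lmod1, which encodes the actin nucleator leiomodin of smooth muscle, was at 19.0 to 37.8 RPKM in CKO and 12.1 to 20.3 RPKM in WT. Smtn, the smoothelin gene, was at 15.1 to 36.5 RPKM in CKO and 29.8 to 32.2 RPKM in WT, and Synpo2, the gene of an actin-bundling partner of filamin, was at 1.22 to 3.08 RPKM in CKO and 0.786 to 1.65 RPKM in WT. The groups of these last 3 genes overlapped, and for Smtn the log2 difference was below 0 (−0.26).

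**Figure D2:**
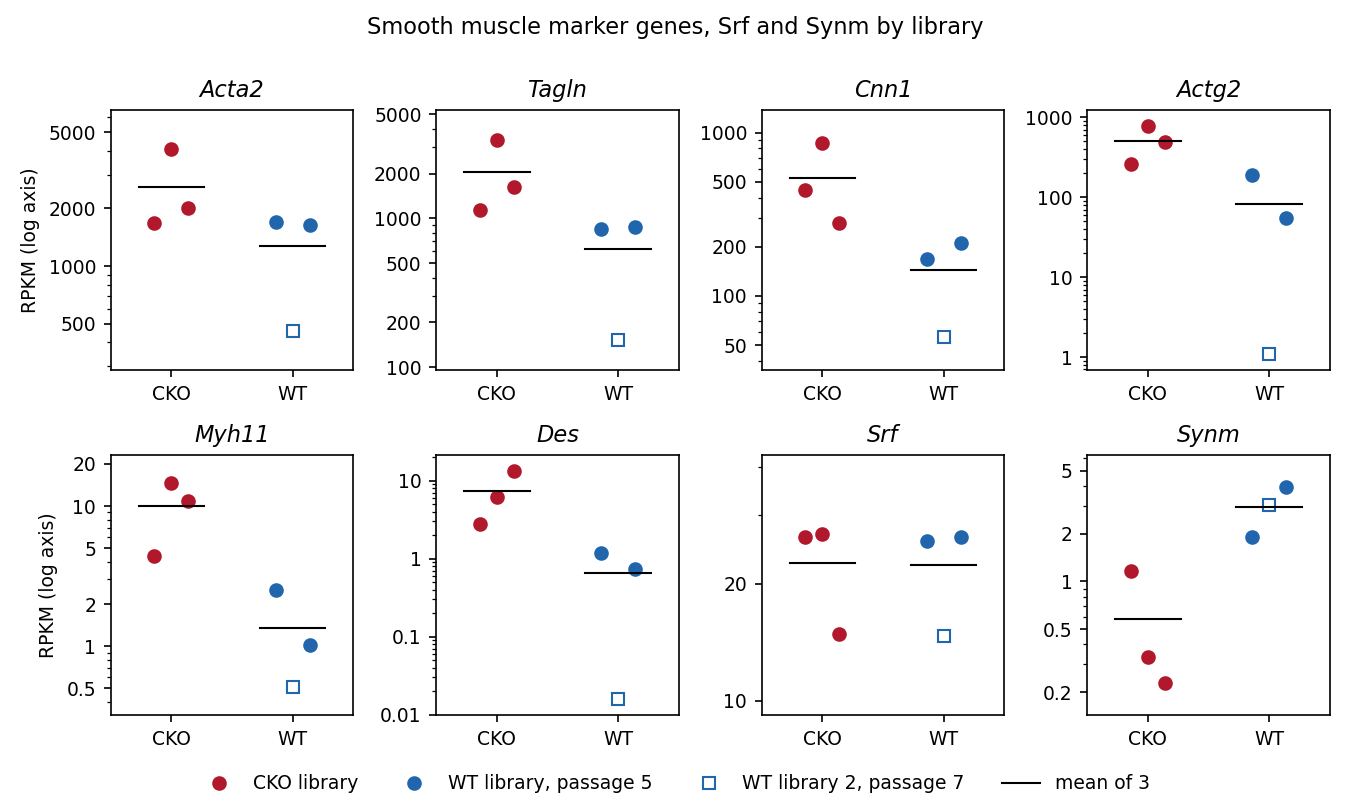
RPKM on a log axis in each library for 6 smooth muscle marker genes, Srf and Synm, with CKO libraries in red, WT libraries in blue, the passage 7 WT library as an open square and black lines for the mean of 3. In Tagln, Cnn1, Actg2, Myh11 and Des all CKO points lie above all WT points, Acta2 and Srf overlap, and Synm runs the other way.

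Of 7 genes for myosin and its regulation, 5 had a log2 difference above 0, beside 5950 of all 11085 tested genes, and 2 below. The motor subunit of smooth muscle had the largest difference. Myh11, the smooth muscle myosin heavy chain gene, stood at 4.40, 14.5 and 10.9 RPKM in CKO libraries 1, 2 and 3, against 2.52, 0.515 and 1.01 RPKM in WT libraries 1, 2 and 3. All CKO libraries were above all WT libraries, although the levels were low beside those of Acta2. The mean Myh11 level in CKO was 7.37 times that in WT and 5.63 times that in the passage 5 WT libraries. Its log2 difference was 2.18 (SE 0.47), or 1.91 (SE 0.50) without WT library 2. Myl6, the essential light chain gene shared by muscle and non-muscle myosin, was the third most abundant member. It stood at 824, 2158 and 772 RPKM in CKO libraries 1, 2 and 3, against 938, 841 and 1182 RPKM in WT libraries 1, 2 and 3, with overlap and with CKO library 2 alone above 1182 RPKM. Myl9, the regulatory light chain gene, ranged from 431 to 995 RPKM in CKO and 294 to 426 RPKM in WT. The Myl9 groups did not overlap, but the lowest CKO library and the highest WT library were close.

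Mylk encodes the kinase that starts contraction by phosphorylating the regulatory light chain, and it was at 4.62 to 11.4 RPKM in CKO and 2.90 to 6.46 RPKM in WT, with overlap. Of the myosin phosphatase genes, the targeting subunit Ppp1r12a was at 14.2 to 26.8 RPKM in CKO and 13.8 to 25 RPKM in WT, with overlap, and the related subunit Ppp1r12b was lower in every CKO library, at 3.43 to 4.23 RPKM in CKO and 4.43 to 5.31 RPKM in WT. The Ppp1r12b log2 difference of −0.35 (SE 0.20) did not pass (limma adjusted p = 0.607). Ppp1r14a, the gene of the phosphatase inhibitor CPI-17, was highest in WT library 2, at 4.09 RPKM, and at 0.406 to 1.95 RPKM in CKO. Its log2 difference of −0.36 became 0.095 without that library.

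Genes for PDZ and LIM proteins, which tether actin at adhesions and dense bodies and in some cases enter the nucleus, numbered 10. All 9 tested had a log2 difference above 0, beside 5950 of all 11085 tested genes. Without WT library 2 it was above 0 in 7 of the 9, beside 5118 of 10920 genes. Fhl1, the gene of a LIM-only protein of striated muscle, stood at 70.2, 251 and 61.7 RPKM in CKO libraries 1, 2 and 3, against 35.5, 32.8 and 23.7 RPKM in WT libraries 1, 2 and 3. Its CKO libraries all exceeded the WT libraries, and WT library 2 was not the lowest. Its log2 difference was 1.74 (SE 0.53), with limma adjusted p = 0.350, and 1.79 (SE 0.63) without WT library 2. Without CKO library 2, the highest by far, it was 1.10 (SE 0.25). The relative Fhl2, whose protein can bind SRF, stood at 57.9 to 135 RPKM in CKO and 69.5 to 75.7 RPKM in WT and overlapped. Lpp, a gene for a zyxin-related adhesion protein, stood at 25.5, 14.8 and 14.3 RPKM in CKO libraries 1, 2 and 3, against 9.99, 7.2 and 7.76 RPKM in WT libraries 1, 2 and 3. Its log2 difference was 1.01 (SE 0.28), or 0.92 (SE 0.31) without WT library 2, and CKO library 1 was the highest.

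Pdlim7, the gene of the PDZ and LIM protein enigma, stood at 81.2, 142 and 69.0 RPKM in CKO libraries 1, 2 and 3, against 54.8, 20.5 and 47.5 RPKM in WT libraries 1, 2 and 3. Ldb3, the gene of a Z-disc protein of the same family, stood at 1.54, 2.16 and 1.95 RPKM in CKO libraries 1, 2 and 3, against 1.02, 0.265 and 0.479 RPKM in WT libraries 1, 2 and 3. Neither pair of groups overlapped. The log2 difference was 1.27 (SE 0.44) for Pdlim7 and 0.88 (SE 0.25) for Ldb3, and without WT library 2 it was 0.85 (SE 0.35) and 0.73 (SE 0.25). Ldb3 reached the filter level of 1 RPKM in the CKO libraries and in WT library 1. Pdlim5 was at 40.5 to 57.9 RPKM in CKO and 31.2 to 61.6 RPKM in WT, with overlap, and Pdlim3 was at most 0.790 RPKM. Csrp2, the gene of a smooth muscle LIM protein that works with SRF, stood at 279.8, 378 and 114 RPKM in CKO libraries 1, 2 and 3, against 151, 17.3 and 70.3 RPKM in WT libraries 1, 2 and 3. WT library 1 exceeded CKO library 3, so the groups overlapped, and the log2 difference was 1.98 (SE 0.81), or 1.14 (SE 0.59) without WT library 2. Csrp1 was at 238 to 440.1 RPKM in CKO and 79.0 to 223 RPKM in WT, without overlap, and Tgfb1i1, the gene of the adhesion protein Hic-5, at 62.2 to 136 RPKM in CKO and 62.8 to 101 RPKM in WT, with overlap.

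**Figure D3:**
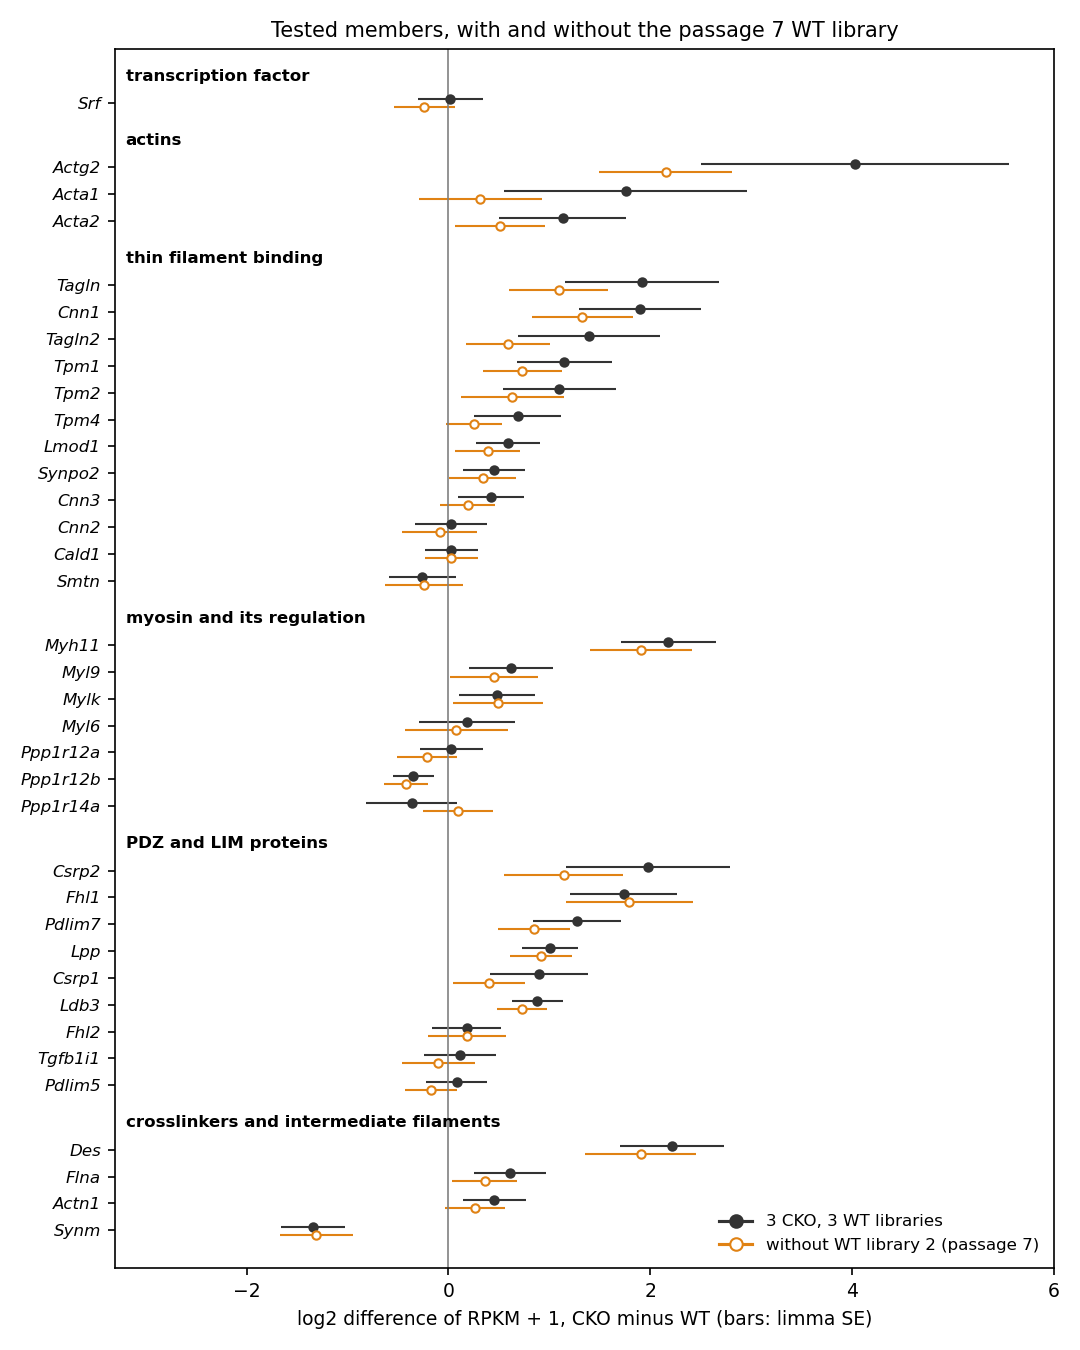
Log2 differences of RPKM + 1, CKO minus WT, for the 36 tested members grouped by role, with all libraries (filled) and without the passage 7 WT library (open), and limma standard errors as bars. Actg2 lies at 4.03 with all libraries and at 2.15 without that one, while Myh11 lies at 2.18 and 1.91 and Synm at −1.34 and −1.31.

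The intermediate filament genes of muscle lay on opposite sides of 0. Des, which encodes desmin, stood at 2.77, 6.17 and 13.3 RPKM in CKO libraries 1, 2 and 3, against 1.18, 0.0158 and 0.733 RPKM in WT libraries 1, 2 and 3. Every CKO library was above every WT library, and WT library 2 held 1 read. Des reached the filter level of 1 RPKM only in the CKO libraries and in WT library 1. On the scale of RPKM + 1, which understates changes at such low levels, the Des log2 difference was 2.22 (SE 0.52), with limma adjusted p = 0.277, and 1.91 (SE 0.55) without WT library 2. With a pseudocount of 0.1 it was 3.64, and with voom on recovered reads 4.60. Synm, which encodes synemin, a partner of desmin in the same filaments, stood at 1.17, 0.335 and 0.229 RPKM in CKO libraries 1, 2 and 3, against 1.90, 3.05 and 3.93 RPKM in WT libraries 1, 2 and 3. Every CKO library was below every WT library, with 32 to 174 reads in CKO and 260 to 536 in WT. Synm reached the filter level of 1 RPKM only in the WT libraries and in CKO library 1. The Synm log2 difference was −1.34 (SE 0.32), with adjusted p = 0.277, and −1.31 (SE 0.36) without WT library 2, and it was −2.38 with a pseudocount of 0.1 and −2.64 with voom. Of the actin crosslinkers, Actn1 (α-actinin-1) was at 179 to 264 RPKM in CKO and 120.2 to 207 RPKM in WT, and Flna (filamin A) at 287 to 387 RPKM in CKO and 163 to 343 RPKM in WT, with overlap in each.

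Srf itself did not separate the genotypes. It stood at 26.3, 26.8 and 14.8 RPKM in CKO libraries 1, 2 and 3, against 25.8, 14.7 and 26.3 RPKM in WT libraries 1, 2 and 3. CKO library 3 and WT library 2 were the low pair, and the log2 difference was 0.021 (SE 0.33), with limma adjusted p = 0.989, or −0.24 (SE 0.30) without WT library 2. Of 19 SRF cofactors and upstream regulators, all were listed and 18 were tested, and none passed over all genes. Of the 18, 9 lay above 0, beside 5950 of all 11085 tested genes, and 9 below. The cofactor gene Mrtfa was at 13.4 to 19.9 RPKM in CKO and 13.3 to 18.5 RPKM in WT. Mrtfb was at 2.24 to 5.30 RPKM in CKO and 2.95 to 5.23 RPKM in WT, and both genes, named after their values were seen, overlapped. Myocd, the myocardin gene, also named after its values were seen, was under 0.1 RPKM in every library. Elk3, a ternary complex factor gene, was at 16.1 to 24.6 RPKM in CKO and 11.9 to 15 RPKM in WT, without overlap.

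Of 19 further SRF and MRTF target genes, all were tested and none passed. The log2 difference was above 0 in 13, beside 5950 of all 11085 tested genes, and below 0 in 6, with a median of 0.33. Without WT library 2 that median was 0.074. Filip1l, the gene of a filamin-interacting protein homologue, was at 29.6 to 88.1 RPKM in CKO and 3.05 to 15.4 RPKM in WT. Fblim1 (migfilin) was at 19.9 to 37.0 RPKM in CKO and 8.83 to 17.4 RPKM in WT and Nexn (nexilin) at 14.0 to 25.8 RPKM in CKO and 6.35 to 12.5 RPKM in WT. Each of these was higher in every CKO library. Ablim1, an actin-binding LIM protein gene, was at 0.680 to 2.16 RPKM in CKO and 5.25 to 12.1 RPKM in WT and lower in every CKO library. Smooth muscle and pericyte markers outside the members lay on both sides of 0, with 6 above, beside 5950 of all 11085 tested genes, and 4 below. Their median log2 difference was 0.29, or 0.070 without WT library 2. Mcam (CD146) was at 17.5 to 69.2 RPKM in CKO and 1.2 to 6.10 RPKM in WT, higher in every CKO library, while the pericyte gene Cspg4 (NG2) was at 0.378 to 3.17 RPKM in CKO and 7.62 to 17.2 RPKM in WT. Pdgfrb, which is also on the stromal list, was at 26.1 to 48.5 RPKM in CKO and 60.2 to 85.8 RPKM in WT, and both were lower in every CKO library. Itga8, an integrin gene of smooth muscle, overlapped at 2.31 to 6.24 RPKM in CKO and 1.27 to 2.48 RPKM in WT. Of these 15 markers 10 were tested and none passed.

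**Figure D4:**
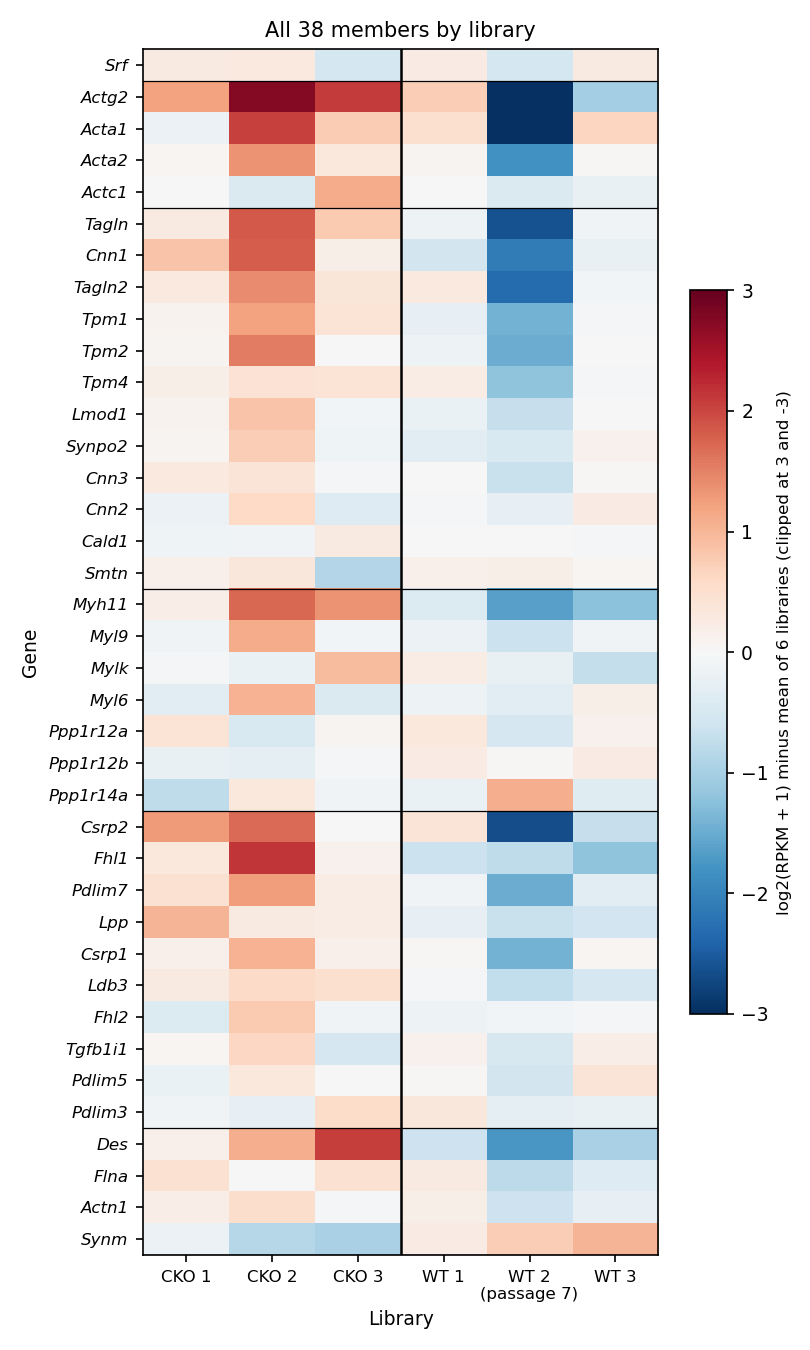
Log2(RPKM + 1) of each of the 38 members in each library, minus the gene's mean over the 6 libraries (red above, blue below, clipped at 3 and −3), with genes grouped by role. CKO library 2 is the reddest and WT library 2 the bluest column for most of the actin, thin filament and LIM genes.

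A single library of each genotype held most of the extremes. CKO library 2 had the highest value of the 6 in 26 of the 38 members, against 19.3% of all listed genes. WT library 2 had the lowest value in 26 of 38, against 33.2%. Reads of the 38 members made up 2.39%, 4.32% and 2.58% of CKO libraries 1, 2 and 3, against 2.16%, 1.06% and 2.02% of WT libraries 1, 2 and 3. The Wilson 95% interval of the share with the fewest reads, in WT library 2, was 1.05% to 1.06%, which covers counting error only. With 3 libraries against 3, no exact permutation test of such a share can go below p = 0.1. Acta2 alone took 26.8% of the member reads in CKO library 2 and 12.3% in WT library 2.

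With WT library 2 and CKO library 2 both left out, an alternative chosen after seeing the data, the median log2 difference of the 35 tested members was 0.12, and over all tested genes it was 0.0032. In that comparison Acta2 was at 0.13, Actg2 at 1.78, Des at 1.92, Myh11 at 1.59, Fhl1 at 1.16, Lpp at 1.04 and Synm at −1.21. Acta2 kept its direction but was close to 0 without the extreme libraries, and the other 6 of these genes also kept theirs. Acta1, Cnn2, Fhl2, Myl6, Pdlim5, Srf and Tgfb1i1 changed sign. Tagln was at 0.66 and Tpm1 at 0.41. Over the 35 members 25 lay above 0, against 50.4% of tested genes, and 10 below. Both CKO libraries exceeded both WT libraries in 14 members, against 20.5%, and lay below them in 6, against 21.9%. The lower members were Cnn2, Myl6, Pdlim5, Ppp1r12b, Synm and Tgfb1i1. None of the tested members passed in limma there either, and 9 had an unadjusted p under 0.05, against 6.81% of tested genes.

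Markers of other cell types and of cell division also varied between libraries. The summed level of the 15 macrophage markers, all listed and tested, was 792, 453 and 3685 in CKO libraries 1 to 3 and 1153, 861 and 2417 in WT libraries 1 to 3 (RPKM). The library with the highest member share, CKO library 2, had the lowest macrophage sum. CKO library 3, with the next highest member share, had the highest macrophage sum. The cell cycle sum was 511, 419 and 224 in CKO libraries 1 to 3 and 522, 47.4 and 317 in WT libraries 1 to 3. It was lowest in the library with the lowest member share, WT library 2, and next lowest in CKO library 3. Striated muscle markers, of which 16 of 22 were listed, summed to 27.7, 7.78 and 25.5 in CKO libraries 1 to 3 and 39.3, 3.19 and 23.3 in WT libraries 1 to 3. The 6 others were not analysed here. The skeletal muscle regulator genes Myod1 and Myog, named after their values were seen, were at 0 to 0.112 RPKM and 0 to 1.03 RPKM, and Myog was at 0 in every library but CKO library 3. In that library Des, Actc1 and Myog were each at their highest. The striated marker sum was highest in WT library 1, and Acta1 was highest in CKO library 2. Endothelial markers, 7 of 8 listed, summed to 2.84 to 6.40 RPKM in CKO and 1.67 to 5.54 RPKM in WT. The median log2 difference of the 15 cell cycle genes was 1.04, or −0.14 without WT library 2. For the 15 macrophage markers it was −0.24, or −0.71 without that library. For the 7 striated muscle markers tested it was −0.084, or −0.94 without that library. None of the macrophage, cell cycle, striated muscle or endothelial genes tested passed in limma, and none had an unadjusted p under 0.05. The part of these cells and of division in the member differences was not tested.

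**Figure D5:**
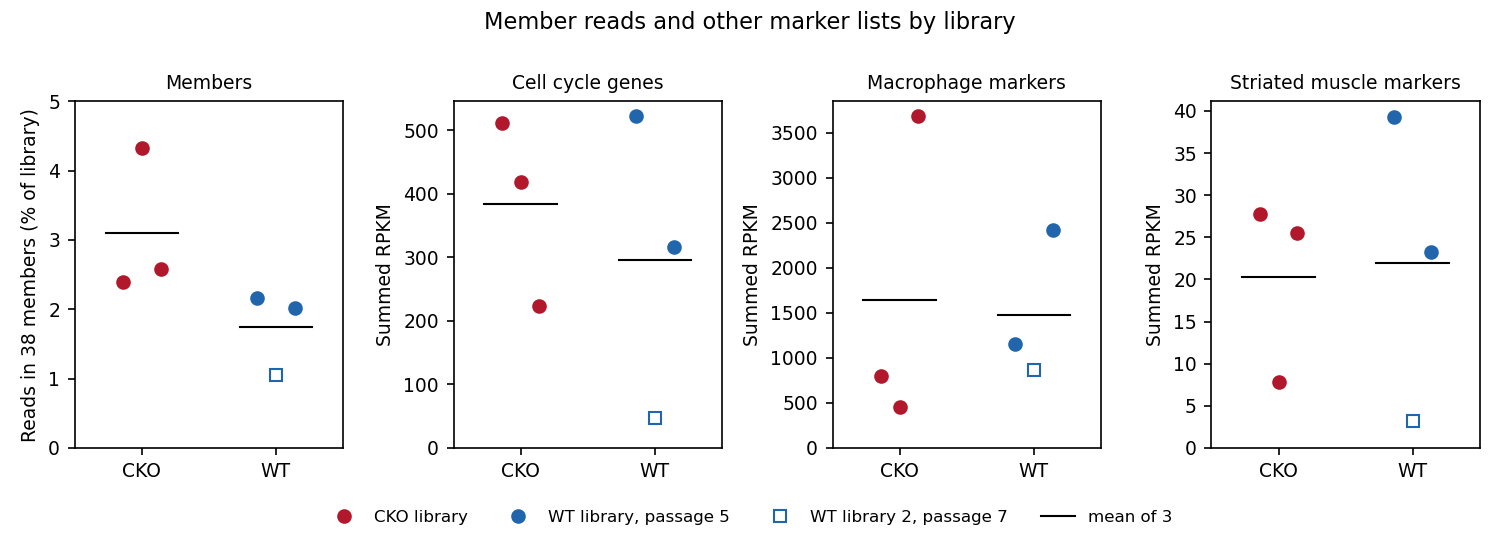
Reads in the 38 members as a percentage of each library, and summed RPKM of cell cycle genes, macrophage markers and striated muscle markers, by library, with symbols as in the plot of marker genes. The members peak in CKO library 2 (4.32%), where macrophage markers are lowest, and both members and cell cycle genes are lowest in WT library 2. Macrophage markers are highest in CKO library 3, where the member share is next highest (2.58%).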

How the data were processed

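The deposited files hold 1 value per gene and library under the plain header of expression. The authors had scaled reads to gene length and library total, which makes the deposited values RPKM; this was read from the values, since no header names the unit. With 1 whole-number total for each library and 1 whole-number length for each gene, 15042 of 15063 genes (99.86%) gave whole reads, within 0.01 read or a relative error of 1e-07. On simulated data 98.5% of 1491 genes were recovered exactly. A 1 kb gene with 3 reads has 0.145 to 0.173 RPKM, counting error only. The genome build named in the submitters' processing notes is mm9. Libraries were made with a stranded mRNA kit per the labels' protocols. The aligner, the counter, the annotation and whether strand was used: not given in the sources used here. The series-wide table holds the same values and was left aside.

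Log2(RPKM + 1) was fitted with limma 3.58.1 (R 4.3.3) on genotype alone, with a trend on mean level and robust variances, for genes at 1 RPKM or more in at least 3 of 6 libraries. Two-sided p-values were adjusted over all tested genes (Benjamini-Hochberg). Such differences understate the change of low genes. Titles gave the groups and replicate numbers. Separate cultures or litters within a group are not stated, so the tests measure the spread of these libraries, which may be technical. Alternatives were other scalings, filters and pseudocounts, no trend, voom on recovered reads, a replicate block, merged WT libraries 1 and 2, and each library left out. Every library's value is given for Srf, the smooth muscle genes Acta2, Tagln, Cnn1, Myh11, Actg2 and Des, the 12 members with the lowest p and the 3 most abundant; of each other list, up to 4 genes with the lowest p are named, apart from some that are not reported here. The members, lists and rule were chosen with earlier results of these data known. Promoter windows came from RefSeq (GRCm38.p6), another build than that of the files, and served only for their letters.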

Additional observations from a re-analysis of the deposited data

How the results depend on the processing

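No member passed the threshold under any alternative run, and the median log2 difference of the tested members stayed above 0. It was 0.38 to 0.80 with 1 library left out and 0.12 without both WT library 2 and CKO library 2, a setting chosen after seeing the data. The number of genes past the threshold over all genes was 1. It was 2 after median centring, 2 after quantile normalization, 4 with the filter at RPKM 5, 20 with WT libraries 1 and 2 merged, and 0 without a filter, with a pseudocount of 0.1, with voom on recovered reads and without both of those libraries. With 1 library left out it was 0 to 24, with 24 without WT library 1, 17 without CKO library 1, 1 without CKO library 2 and 0 without each of the others. The members at an unadjusted p under 0.05 numbered 12, beside 1080 of 11085 tested genes. They numbered 6 without CKO library 2 (980 of 11005 genes), 8 without WT library 2 (642 of 10920) and 8 of 29 tested with the filter at RPKM 5 (723 of 7671). Under the other settings bar the block they numbered 9 to 12. Beside these, the genes ranged from 665 of 10876 (without WT library 3) to 1451 of 10824 (without WT library 1).

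Of 11 members that changed sign under some setting, Acta1 was at 1.76 over 6 libraries and the others lay between −0.36 and 0.19. After quantile normalization the log2 difference was −0.087 for Cald1, −0.23 for Cnn2, −0.16 for Myl6 and −0.0090 for Srf. With WT libraries 1 and 2 merged it was −0.037 for Cnn2, −0.042 for Pdlim5, −0.035 for Ppp1r12a and −0.074 for Srf. Without both WT library 2 and CKO library 2 it was −0.27 for Acta1, −0.38 for Cnn2, −0.17 for Fhl2, −0.40 for Myl6, −0.31 for Pdlim5, −0.38 for Srf and −0.38 for Tgfb1i1. With 1 library left out the range was −0.10 to 0.10 for Cald1, −0.27 to 0.23 for Cnn2, −0.17 to 0.43 for Fhl2, −0.29 to 0.45 for Myl6, −0.18 to 0.30 for Pdlim5, −0.21 to 0.27 for Ppp1r12a, −0.64 to 0.095 for Ppp1r14a, −0.50 to 0.11 for Smtn, −0.24 to 0.29 for Srf and −0.17 to 0.39 for Tgfb1i1. The cause was not tested.

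The replicate block rests on numbers that do not pair the libraries: the correlation of deviations was 0.198 for the libraries numbered 1, 0.0145 for those numbered 2 and −0.0192 for those numbered 3. With that block 0 genes and 0 members passed, and 8 members had an unadjusted p under 0.05, beside 1123 of 11085 genes. With a pseudocount of 0.1 and with voom, differences of low genes were over 1.5 times as large for Des (3.64 and 4.60), Synm (−2.38 and −2.64), Ldb3 (1.67 and 1.91), Synpo2 (0.71 and 0.79) and Ppp1r14a (−0.59 and −0.70), and for Acta1 with voom (2.88). Depth limits the genes with few reads, such as Des in WT library 2 and Actc1 and Pdlim3 throughout.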

Other observations

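Transcripts of some members share sequence with other genes. Of the 50-base windows in the longest coding transcript of GENCODE M21, 18.5% for Myl6, 16.4% for Cnn3 and 12.1% for Tpm4 were found in transcripts of other genes, and for Acta1 the share was 2.22%. For Acta2 it was 0.352%, for Myh11 0.4%, and for Actg2, Tagln, Cnn1, Des, Fhl1 and Synm 0%. How reads that match several genes were counted is not given in the sources used here, so the levels of Myl6, Cnn3 and Tpm4 are uncertain. The shares of windows do not measure the size of that uncertainty.

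WT library 1, at passage 5, and WT library 2, at passage 7, carry the same animal label but differ in Ddx3y. By RPKM, WT library 1 had 175 times the Actg2 level of WT library 2, where Actg2 had 30 reads. The ratio was 135 for Acta1, with 5 reads in WT library 2, and 75.1 for Des, with 1 read there. It was 8.76 for Csrp2, 6.19 for Tagln2, 5.55 for Tagln and 3.71 for Acta2, and it was 1.01 for Cald1 and 1.08 for Fhl1. It was below 1 for Smtn (0.996), Fhl2 (0.950), Synm (0.624) and Ppp1r14a (0.266). With 1 library at passage 7 there is no replicate of this comparison, and these genes were picked after their values were seen.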
